A study of Mus musculus with 10 samples.

Results

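The comparison described here is that of 2 stable lines of mouse Lewis lung carcinoma (LLC) cells kept in acid. LLC is a transplantable lung tumour line from C57BL/6 mice. One line carried TDAG8, the other the control vector alone. They are called the TDAG8 line and the control line. The members are the 4 arrays at pH 6.4 out of the 10 in the series, 2 per line, taken after 4 h and 12 h and paired by time. The other 6 arrays, 3 per line, came from cells at pH 7.4 for 4 h or 12 h and from cells before treatment, and serve as pairs without acid. All treated cells were first starved of serum for 12 h and then held in DMEM with 0.1% bovine serum albumin at the stated pH. Each array was hybridised with an equal mixture of RNA from 4 cultures, so the spread between cultures was averaged away and every line at every time and pH has a single value. Each line is a single stable line. Differences from the making of the lines, in gene levels or in acid response, therefore cannot be told apart from an effect of the receptor.

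TDAG8, encoded by Gpr65, is a receptor of the cell surface that is switched on by protons. It couples mainly to the stimulatory G protein, which raises cyclic AMP and activates protein kinase A. The kinase phosphorylates CREB, a transcription factor that binds the cAMP response element of early response genes. Solid tumours are often acidic, and related receptors such as Gpr4 and Gpr132 sense protons as well.

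The probe set for Gpr65 read between 0.3 and 5.3 signal units on all 10 arrays, with 2.6 and 0.9 on the acid arrays of TDAG8 cells, against 1.3 and 0.6 on those of control cells. It thus gave no check of the transgene, and whether the probes lie within the construct is not given in the sources used here. Gpr4 read 0.8 to 3.2 and Gpr132 0.6 to 11.7, so all 3 receptors lay near the bottom of the scale. Array medians were between 11.7 and 13.8, and the ratio of the 3′ to the 5′ probe sets was 0.756 to 0.841 for Gapdh and 1.26 to 1.35 for actin. Of the epithelial markers, Krt8 read 1242 to 2648 over the 10 arrays, while Cdh1 did not exceed 5.3 and Epcam lay between 22.1 and 45.1. Most lung alveolar markers were near the bottom of the scale, with Sftpc at 0.5 to 10.4 and Nkx2-1 at 0.5 to 9.2, while Sftpb read 13.1 to 28.6. Among genes that also mark fibroblasts, Col3a1 read 4433 to 6730 and Lum 708 to 3964. Dcn read 330 to 1309, Pdgfra 265 to 1617 and Pdgfrb 95.3 to 654. By contrast, Col1a1, Thy1, Postn and Fap did not exceed 10.4, and Col1a2 lay between 6.7 and 20. The leukocyte marker Ptprc stayed at 1.2 to 6.3, while Cd14 read 37 to 71.7, Csf1r 24 to 35.2 and Cd68 7.2 to 20.8. The other leukocyte markers did not exceed 14.3. The endothelial marker Pecam1 stayed at 0.8 to 6.6, and no marker of its list exceeded 14.5.

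More genes differed by 1 or more between the lines in acid than without it. Signals in the text are the deposited linear values, and differences are TDAG8 line minus control line on the log2 scale after quantile normalisation, with a pseudocount of 2.4 that makes changes of dim genes look smaller. Of 12161 genes tested, 345 (2.84%) were higher by at least 1 in the TDAG8 line at 4 h and 231 (1.9%) were lower. At 12 h, 409 (3.36%) were higher and 244 (2.01%) lower. Over the same 12161 genes, the 3 pairs without acid gave 196 to 238 higher and 136 to 162 lower. In these pooled cultures, a smaller share of cells with a transcript and less transcript per cell cannot be told apart.

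Genes were sorted by both times. Those with a difference of at least 1 at both times and of the same sign were taken as alike. Those with at least 1 at one time and under 0.5 at the other were assigned to that time. At least 1 of the 4 arrays had to reach a normalised signal of 50, which left 8675 genes. In the TDAG8 line 44 genes (0.507%) were higher alike at both times and 2 (0.0231%) lower. At 4 h only, 35 (0.403%) were higher and 17 (0.196%) lower. At 12 h only, 31 (0.357%) were higher and 33 (0.38%) lower. A further 2 genes (0.0231%) differed with opposite signs. The same rule applied to the 2 pairs at pH 7.4 found 19 of 8537 genes (0.223%) higher and 2 (0.0234%) lower at both times. Closest inside the limit were Avpi1 with 1.02 at 12 h, Lats2 with 1.02 at 12 h and Acap1 with 1.02 at 12 h. Just outside lay Mxi1 with 0.996 at 12 h, Synpo2 with 0.996 at 4 h and Zc4h2 with -0.995 at 12 h.

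**Figure D1:**
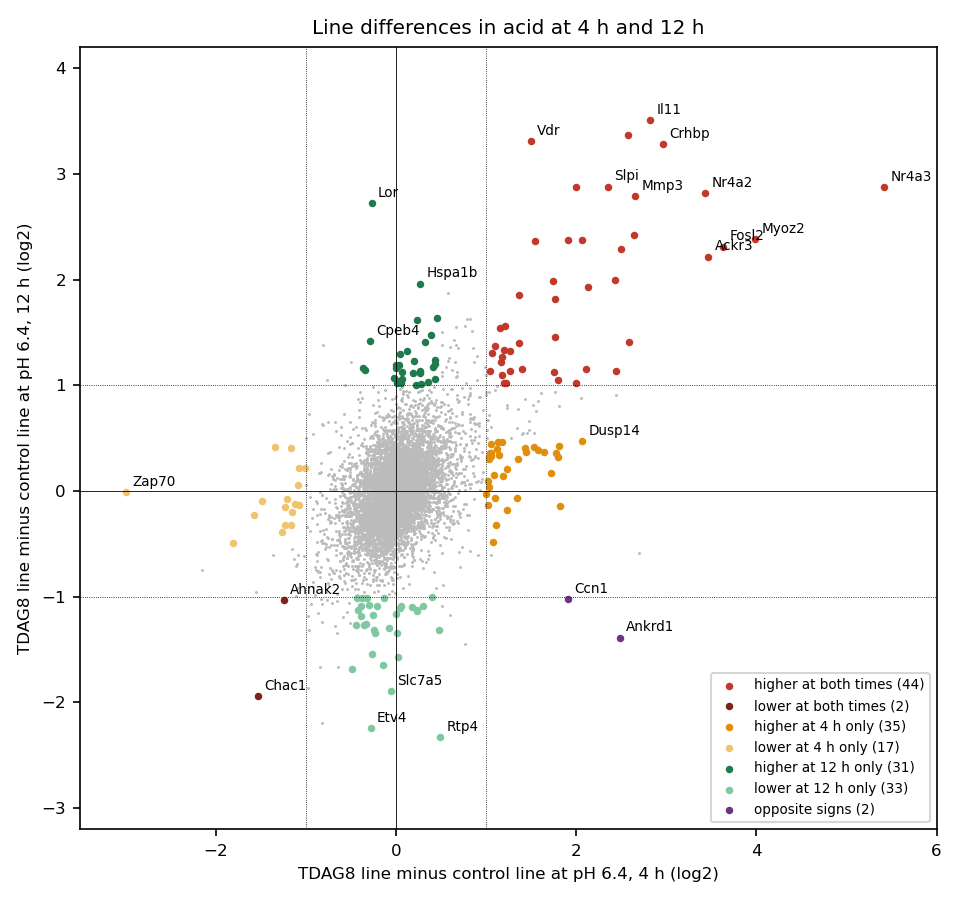
Difference between the TDAG8 line and the control line at pH 6.4 after 4 h (x axis, log2) and after 12 h (y axis, log2). Each point is 1 of the 8675 genes that reached a normalised signal of 50 in acid, and dotted lines mark the limit of 1. Dimmer genes are not drawn. Red points at the upper right are the 44 genes higher in the TDAG8 line at both times, with Nr4a3 farthest out at 5.42 and 2.88. The 2 purple points at the lower right, Ankrd1 and Ccn1, have opposite signs at the 2 times.

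The test across all genes used limma on the 4 acid arrays with time as a block, which leaves 1 residual degree of freedom, and it passed 0 of 12161 genes (0%) at an adjusted p under 0.05. At an unadjusted p under 0.05 there were 1260 genes, 722 higher and 538 lower, and the lowest adjusted p was 0.434. When the 10 arrays shared 1 estimate of the spread, 18 genes (0.148%) passed as higher in the TDAG8 line and 1 (0.00822%) as lower, but 0 passed when any of the 5 matched pairs was left out. With a stricter filter on dim genes, at the 60th percentile, the 4-array test passed 15 of 9358 genes (0.16%). With a variance trend and robust estimation it passed 240 of 12161 (1.97%). Of these 240, 41 were among the 44 genes higher alike and both of the genes lower alike were included, but the sorting used the same differences and nothing is read from that count. The genes below are therefore given by their values, and "higher" and "lower" describe these arrays.

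A group of genes known to respond to cyclic AMP was higher in the TDAG8 line at both times. Nr4a2, an orphan nuclear receptor of the early response, had a signal of 864 at 4 h and 361 at 12 h in TDAG8 cells, against 69.1 at 4 h and 44.5 at 12 h in control cells. Without acid it read 50.1 to 84.7 in the TDAG8 line and 47.5 to 66 in the control line, so the 2 TDAG8 arrays in acid stood above all the others. Its mean difference in acid was 3.12 ± 0.213 (SE from limma, 2 pairs), with an adjusted p of 0.434 in the 4-array test and 0.0194 in the 10-array test. Nr4a3, of the same receptor family, read 216 at 4 h and 102 at 12 h in TDAG8 cells, against 3 at 4 h and 10.8 at 12 h in control cells. Its values without acid were 0.5 to 3.6 in TDAG8 cells and 0.4 to 1.8 in control cells, near the bottom of the scale in both lines. The mean difference of 4.14 ± 0.707 (SE, 2 pairs) fell short in the 10-array test as well, with an adjusted p of 0.0925. It was 2.88 without the 4 h pair and 5.42 without the 12 h pair, and 2.24 with a pseudocount of 32. The other 2 probe sets of Nr4a3 were near the bottom of the scale, with mean differences of 0.07 and 0.43. When all probe sets of a gene were averaged, the mean difference was 1.897 for Nr4a2. Nr4a1, the third of the family, differed by 0.38 at 4 h and -0.30 at 12 h.

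Crem, whose short form is a repressor that closes the cAMP response, had a signal of 135 at 4 h and 119 at 12 h in TDAG8 cells, against 25 at 4 h and 24.9 at 12 h in control cells, and 27.3 to 47.7 in TDAG8 cells and 31.4 to 40 in control cells without acid. The 2 lines did not overlap in acid and did overlap without it. Its mean difference in acid was 2.21, and 0.991 when all its probe sets were averaged. Pde4b, which breaks down cyclic AMP, read 257 at 4 h and 508 at 12 h in TDAG8 cells, against 64.5 at 4 h and 93.3 at 12 h in control cells. In that gene the TDAG8 line was also the higher one in the 3 pairs without acid, by 0.49 to 0.82. Its mean difference in acid was 2.14 ± 0.182 (SE, 2 pairs; adjusted p 0.434, and 0.0354 over 10 arrays). Pde4d, a related enzyme, differed by 0.56 at 4 h and 2.03 at 12 h. Id3, an inhibitor of helix-loop-helix factors, read 589.8 at 4 h and 338 at 12 h in TDAG8 cells, against 156 at 4 h and 88.4 at 12 h in control cells, and Ptgs2, the inducible cyclooxygenase that makes prostaglandins, 3092 at 4 h and 3693 at 12 h in TDAG8 cells, against 897 at 4 h and 1510.4 at 12 h in control cells. In Ptgs2 the control line was also above its values without acid, which were 277 to 466.

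**Figure D2:**
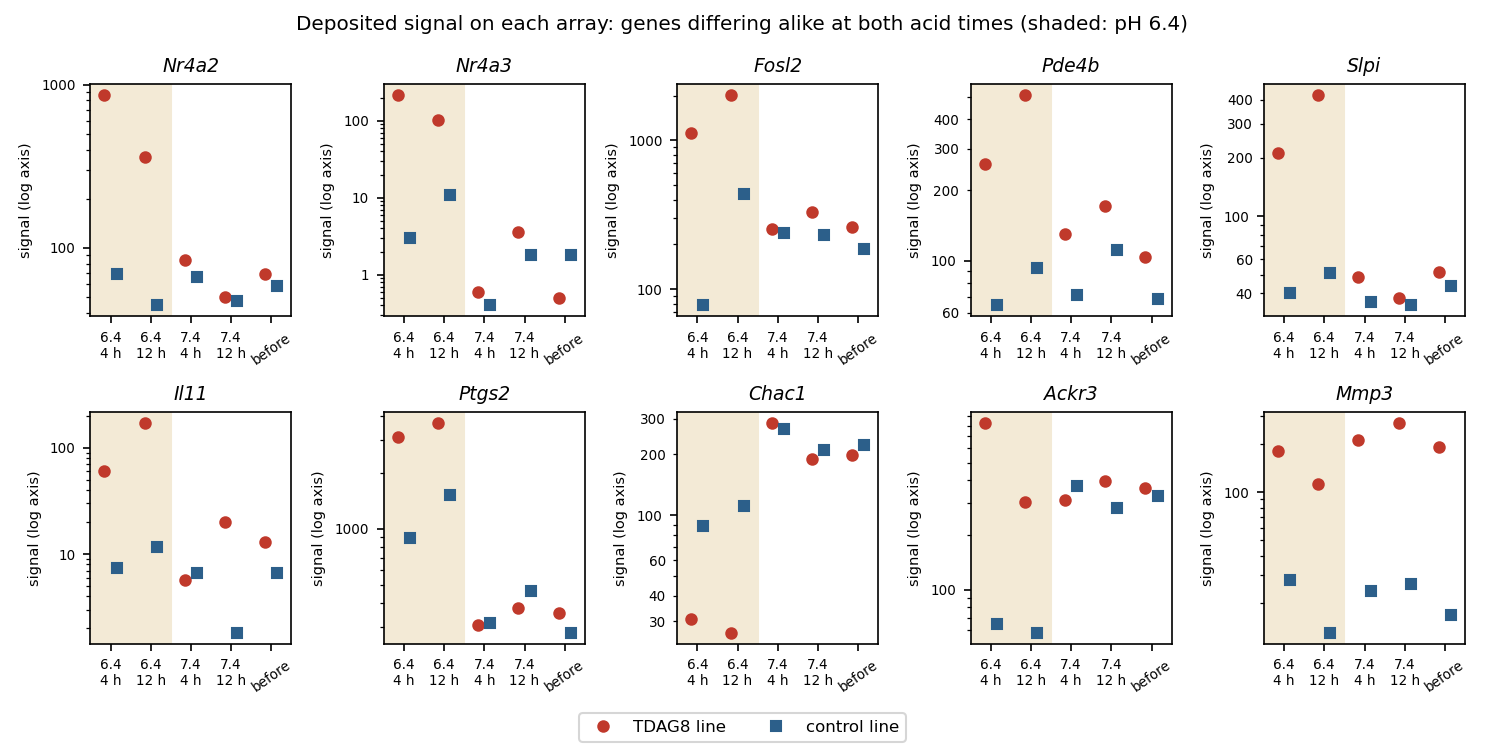
Deposited signal (y axis, log scale) of 10 genes that differed alike at both acid times, on each of the 10 arrays, with the TDAG8 line as red circles and the control line as blue squares. Shading marks pH 6.4; Nr4a2 reads 864 and 361 in TDAG8 cells in acid, against 69.1 and 44.5 in control cells, with the lines close without acid, while in Mmp3 they are apart on all arrays.

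Of a list of 28 cAMP and CREB target genes, 26 were on the array and 22 were bright enough to be tested. At 4 h, 10 of the 22 were higher by at least 1 and 0 lower, beside 2.84% and 1.9% of all genes. At 12 h, 8 were higher and 1 lower, beside 3.36% and 2.01%. The list had a median of 0.875 after 4 h and 0.735 after 12 h, beside -0.005 and 0.006 over all genes, and the mean over the pairs without acid had a median of 0.14. The gene lower by at least 1 was Atf3, a stress-induced factor, with 0.76 at 4 h and -1.45 at 12 h. In the 4-array test 0 of the 22 passed, and in the 10-array test 3 did (Nr4a2, Pde4b and Id3). Fos, a subunit of AP-1, differed by 1.52 at 4 h and 0.81 at 12 h, and Nfil3, a leucine zipper repressor of the clock, by 2.44 at 4 h and 0.91 at 12 h. The list of cAMP and protein kinase A machinery includes cyclases, kinase subunits and anchoring proteins. It had medians of 0.157 and 0.21 over 17 genes, beside -0.005 and 0.006 over all genes, and a median of 0.162 without acid. At both times 11 of the 17 were higher, beside 3749 of 12161 genes. Of the 17 tested members of this list, 2 were higher by at least 1 at 12 h, beside 3.36% of all genes. Pde8a differed by 0.52 at 4 h and 1.08 at 12 h, and Prkar1b by 0.26 and 1.12.

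The cAMP response element (CRE) is the letters TGACGTCA, and its half-site is TGACG, which is contained in the full element. Both strands of the 250 bases before each start site were searched, in promoters from RefSeq on GRCm38.p6. The stretches of Nr4a2 and Nr4a3 that hold half-sites are shown because these genes had the widest differences among the cAMP targets, and the capitals mark the half-sites on either strand. The Nr4a2 stretch is chr2:57124100-57124213 on the minus strand and that of Nr4a3 chr4:48045064-48045172 on the plus strand.
Nr4a2: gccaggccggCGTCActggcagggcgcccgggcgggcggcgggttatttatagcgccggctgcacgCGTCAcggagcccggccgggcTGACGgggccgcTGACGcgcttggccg
Nr4a3: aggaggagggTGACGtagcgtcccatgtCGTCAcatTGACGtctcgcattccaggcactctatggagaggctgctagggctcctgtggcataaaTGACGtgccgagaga
Each holds 4 copies. The full elements found in genes higher at both times or at 4 h only are shown next, with the element in capitals. Ell2, an elongation factor, and Trp53inp2, an autophagy protein, were higher at both times, while Dusp1 was higher at 4 h. The windows are chr13:75707256-75707323 and chr2:155381785-155381852 on the plus strand and chr17:26508578-26508645 on the minus strand.
Ell2: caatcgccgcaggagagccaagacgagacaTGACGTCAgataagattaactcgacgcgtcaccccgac
Trp53inp2: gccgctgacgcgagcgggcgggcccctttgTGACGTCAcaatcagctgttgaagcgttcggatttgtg
Dusp1: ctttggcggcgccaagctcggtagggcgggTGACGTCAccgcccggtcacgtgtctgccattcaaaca
Of the 38 genes higher alike that had a promoter in the table, 15 (39.5%) held a half-site, beside 2984 of 9861 tested genes (30.3%). A full element was found in 2 of the 38 (5.26%) and in 2.97% of all. Among the cAMP targets, 14 of 18 (77.8%) held a half-site. That list is of known CREB targets, which favours the site in advance, so nothing is read from its share. A match is a description of letters and does not say that a factor binds there.

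Transcription factors outside the cAMP list were also among the 44. Fosl2, an AP-1 subunit, had a signal of 1121 at 4 h and 2019 at 12 h in TDAG8 cells, against 77.7 at 4 h and 436 at 12 h in control cells. Without acid it read 252 to 329.9 in the TDAG8 line and 187 to 238 in the control line, so at 4 h the control line was below its own values without acid while the TDAG8 line was above. Cebpb, a leucine zipper factor of the acute phase response, read 2096 at 4 h and 2189 at 12 h in TDAG8 cells, against 981 at 4 h and 977 at 12 h in control cells, and Bcl3, an atypical inhibitor of NF-kB, 111 at 4 h and 198 at 12 h in TDAG8 cells, against 33.5 at 4 h and 43.1 at 12 h in control cells. Tsc22d1, a leucine zipper regulator, differed by 1.10 at 4 h and 1.37 at 12 h, with 4 of its 5 bright probe sets in agreement, meaning a difference of at least 0.5 in the direction and at the times of its class. Vdr, the vitamin D receptor, read 28 at 4 h and 131 at 12 h in TDAG8 cells, against 9 at 4 h and 10.1 at 12 h in control cells, where the TDAG8 array at 12 h was the highest of the 4.

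Cytokines of the interleukin-6 family were among them. Il11 had a signal of 60.1 at 4 h and 172 at 12 h in TDAG8 cells, against 7.4 at 4 h and 11.6 at 12 h in control cells, and Il6 had 77.4 at 4 h and 13.6 at 12 h in TDAG8 cells, against 11.9 at 4 h and 0.7 at 12 h in control cells. The Il6 arrays at 12 h were dim in both lines, so its difference there rests on low signal. Il11 varied between the lines without acid, by -0.38 at pH 7.4 for 4 h and 2.43 for 12 h, beside a mean difference in acid of 3.17 ± 0.229 (SE, 2 pairs). Socs3, the feedback inhibitor of this family, read 702 at 4 h and 448 at 12 h in TDAG8 cells, against 144 at 4 h and 197 at 12 h in control cells. Lif, another member, was dimmer and differed by 1.25 at 4 h and 1.54 at 12 h. Of the 10 tested genes of the cytokine list, 4 were higher by at least 1 at each time and 0 lower. Over all genes, 2.84% were higher and 1.9% lower at 4 h, and 3.36% and 2.01% at 12 h. The list had medians of 0.606 and 0.53, beside -0.005 and 0.006 over all genes. The mean over the pairs without acid had a median of 0.294, and acid minus no acid 0.082. The receptor subunits Il6st and Il6ra differed by no more than 0.29 in size.

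Slpi, a secreted inhibitor of leukocyte elastase, read 211 at 4 h and 422 at 12 h in TDAG8 cells, against 40.3 at 4 h and 50.8 at 12 h in control cells. Without acid the 6 arrays lay between 34.7 and 51.7, so only the 2 TDAG8 arrays in acid were high. The mean difference in acid was 2.62 ± 0.195 (SE, 2 pairs; adjusted p 0.434, and 0.0217 over 10 arrays). Crhbp, which binds corticotropin-releasing hormone, had 57.8 at 4 h and 81.5 at 12 h in TDAG8 cells, against 6.1 at 4 h and 5.9 at 12 h in control cells. Apold1, an early response gene of endothelial cells, read 233 at 4 h and 219 at 12 h in TDAG8 cells, against 39.8 at 4 h and 38.1 at 12 h in control cells, close to equal at the 2 times in either line. Thbd and Procr, the thrombomodulin and protein C receptor of the anticoagulant pathway, differed by 2.58 at 4 h and 1.40 at 12 h and by 1.54 at 4 h and 2.36 at 12 h.

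Ackr3, an atypical receptor that scavenges the chemokine Cxcl12, differed by the behaviour of both lines. It had a signal of 829.8 at 4 h and 303 at 12 h in TDAG8 cells, against 64.7 at 4 h and 57.6 at 12 h in control cells, while the arrays without acid read 313 to 399 in the TDAG8 line and 281 to 370.3 in the control line. The control line in acid was low at both times. The TDAG8 line in acid was above its own range without acid at 4 h and just under it at 12 h. Measured against each line's own mean without acid, the control line differed by at least 1 downwards, with the TDAG8 line within 1, in 4 of the 44 genes, namely Ackr3, Dkk2, Il1r1 and Kcne4. In 23 of the 44 the TDAG8 line was up by at least 1 with the control line within 1. In Nr4a3 and Ptgs2 both lines were up by at least 1, and in 15 both were within 1. The 44 were chosen for a higher TDAG8 line in acid, which favours such a split. It was not counted over all genes, so nothing is read from these counts.

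Krt18, a keratin of simple epithelia, read 171 at 4 h and 194 at 12 h in TDAG8 cells, against 42.1 at 4 h and 21.6 at 12 h in control cells. Its mean difference was 2.44 ± 0.273 (SE, 2 pairs; adjusted p 0.434, and 0.0493 over 10 arrays). Its partner Krt8 differed by 0.68 at 4 h and 0.91 at 12 h. Over the 10 epithelial markers the summed signal was 2902 and 2411 in TDAG8 cells in acid, against 1829 and 1304 in control cells, most of it Krt8, and 6 of the 10 were too dim to be tested. Over the 10 fibroblast markers the sum was 9865 and 7430 in TDAG8 cells, against 8832 and 8396 in control cells, with Lum differing by 0.90 at 4 h and 1.28 at 12 h and Pdgfrb by -0.35 at 4 h and -1.27 at 12 h. The leukocyte list summed to 147 and 124 in TDAG8 cells, against 130 and 122 in control cells. The endothelial list summed to 48.6 and 43.7 in TDAG8 cells, against 43.6 and 38.4 in control cells, and the alveolar list to 63.2 and 53.2 in TDAG8 cells, against 53.5 and 25.5 in control cells. The part of these markers in the other differences was not tested.

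Some of the genes higher alike were also higher in the TDAG8 line without acid. After sorting by the 3 pairs without acid, a step chosen after the values were seen, 8 of the 44 also differed by at least 1 in all 3 of them. A share over all genes was counted only for the pairs at pH 7.4, where 19 of 8537 genes (0.223%) were higher by at least 1 in both. Mmp3, the matrix protease stromelysin, had a signal of 181 at 4 h and 113 at 12 h in TDAG8 cells, against 28.2 at 4 h and 13 at 12 h in control cells. Without acid it read 193 to 273 in the TDAG8 line and 16.8 to 26.6 in the control line, and acid minus no acid was -0.46 ± 0.16 (SE from limma; adjusted p 0.519). Tmem176a and Tmem176b, a neighbouring pair of membrane proteins, had mean differences of 2.22 ± 0.156 and 2.03 ± 0.143 in acid (SE, 2 pairs) and of 2.12 and 2.29 without it. Myoz2, a muscle Z-disc protein, C1s1, a complement protease, Serpinb6b, Acap1 and 3830417A13Rik complete the 8. A line difference in these 8 was thus not limited to acid.

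At the other end, 12 of the 44 differed by under 0.5 in all 3 pairs without acid: Nr4a2, Slpi, Apold1, Ackr3, Ptgs2, Procr, Socs3, Cebpb, Tsc22d1, Avpi1, Lsm7 and Zfp941. The remaining 24 lay between. The share of all genes under 0.5 in these pairs was not counted, so the 12 are not read as a trait of the 44. In 36 of the 44 the difference in acid exceeded every difference without acid at both times, a count that the choice of the 44 in acid favours. The test of acid minus no acid passed 0 of 12161 genes (0%), with 1092 at an unadjusted p under 0.05 and a lowest adjusted p of 0.0994 for Sel1l3, a dim gene outside the 44. With the 60th percentile filter it passed 3 of 9358 genes (0.0321%), namely Nr4a2 with 2.96, Apold1 with 2.46 and Slpi with 2.43, and with trend and robust estimation 27 of 12161 (0.222%), of which 16 were among the 44. Half-sites stood in the promoter of 0 of 7 genes that also differed without acid and in 15 of 31 (48.4%) of the others, beside 30.3% of all tested genes. This split was chosen after the values were seen and 1 side holds only 7 genes. A role of the sites was not tested.

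**Figure D3:**
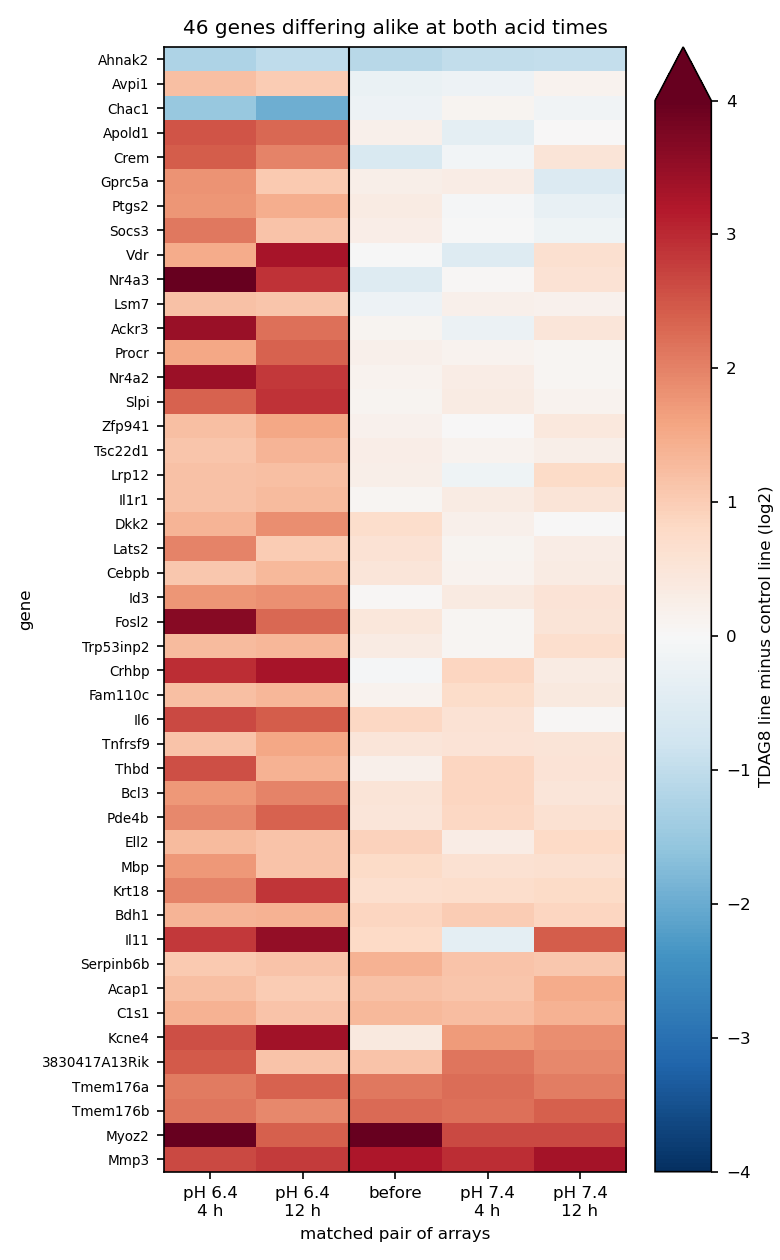
Difference between the TDAG8 line and the control line (colour, log2) for the 46 genes that differed alike at both acid times, in each of the 5 matched pairs of arrays, ordered by the mean of the 3 pairs without acid. Genes at the foot, such as Mmp3 and Myoz2, are red in all 5 pairs, while Nr4a2, Slpi and Ackr3 are red in the 2 acid pairs and pale in the others.

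Only 2 of the 8675 genes that reached a signal of 50 were lower alike in the TDAG8 line. Chac1, a glutathione-degrading enzyme induced by ATF4, had a signal of 30.9 at 4 h and 26.2 at 12 h in TDAG8 cells, against 88.7 at 4 h and 111 at 12 h in control cells. Without acid it read 189.7 to 286 in TDAG8 cells and 209.8 to 267 in control cells, so both lines were lower in acid and the TDAG8 line more so. Its mean difference in acid was -1.74 ± 0.173 (SE, 2 pairs; adjusted p 0.434, and 0.0471 over 10 arrays), and acid minus no acid was -1.66 ± 0.187 (SE; adjusted p 0.277). Ahnak2, a very large scaffold protein, read 91.5 at 4 h and 92.6 at 12 h in TDAG8 cells, against 221 at 4 h and 187 at 12 h in control cells. It was about as low in the TDAG8 line without acid, by -0.98, -0.94 and -1.09 in the 3 pairs.

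The genes that differed at 4 h only included regulators of MAP kinases. Dusp1, a phosphatase that switches off MAP kinases and is a known cAMP target, had a signal of 517 at 4 h and 189 at 12 h in TDAG8 cells, against 143 at 4 h and 162 at 12 h in control cells. The TDAG8 array at 4 h stood above the other 3. Dusp14 and Dusp5, of the same enzyme family, differed by 2.07 at 4 h and 0.47 at 12 h and by 1.13 at 4 h and 0.46 at 12 h. Dusp6, the phosphatase specific for ERK, went the other way, with 1282 at 4 h and 2341 at 12 h in TDAG8 cells, against 3297 at 4 h and 3346 at 12 h in control cells, where the TDAG8 array at 4 h was the low one. Among 12 ERK feedback genes listed, 2 were higher and 1 lower by at least 1 at 4 h, beside 2.84% and 1.9% of all genes. At 12 h 0 were past 1 in either direction, beside 3.36% and 2.01%.

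Sgk1, a kinase of ion transport and cell survival, read 1366 at 4 h and 1418 at 12 h in TDAG8 cells, against 411 at 4 h and 1147 at 12 h in control cells. Here the low array was the control line at 4 h, and the TDAG8 values at the 2 times were close. Vegfa, the angiogenic growth factor, gave 114 at 4 h and 95.7 at 12 h in TDAG8 cells, against 48.3 at 4 h and 104 at 12 h in control cells, with 168 to 179 in TDAG8 cells and 131 to 177 in control cells without acid, so every acid array was under that range and the control line at 4 h was farthest under it. Amotl2, which restrains the co-activator YAP, read 362 at 4 h and 311 at 12 h in TDAG8 cells, against 159.9 at 4 h and 426 at 12 h in control cells. Nxpe3 read 69 at 4 h and 124 at 12 h in TDAG8 cells, against 19.7 at 4 h and 132 at 12 h in control cells. Its difference at 4 h was 1.82, and 0.358 when all its probe sets were averaged. Gadd45b, Socs1 and Prkca were also higher at 4 h, by 1.10, 1.18 and 1.03, with 1 of the 2 bright Prkca probe sets in agreement. Over the 35 genes, the odd array out was the control line at 4 h, reading low, in 23 and the TDAG8 line at 4 h, reading high, in 12. The odd array is the one farthest from the mean of the other acid arrays. The rule of each time class favours the arrays of that time, and no share over all genes was counted.

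Of the 17 genes lower at 4 h only, the TDAG8 array at 4 h read low in 10 and the control array at 4 h read high in 7. Zap70, a kinase of T cell signalling, had the widest gap, with 13.6 at 4 h and 118 at 12 h in TDAG8 cells, against 114 at 4 h and 114 at 12 h in control cells. A single array made that difference of -2.99, the other 3 were close, and the mean of all its probe sets gave -0.789. Il15ra, part of the interleukin-15 receptor, read 4.8 at 4 h and 94.6 at 12 h in TDAG8 cells, against 17.9 at 4 h and 96.2 at 12 h in control cells, so both lines were low at 4 h. Stx11, a syntaxin of granule release, read 67 at 4 h and 98.2 at 12 h in TDAG8 cells, against 142 at 4 h and 79.6 at 12 h in control cells. Of 4 genes in this group with several bright probe sets, Il15ra and Rusc1 had some that were not in agreement.

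**Figure D4:**
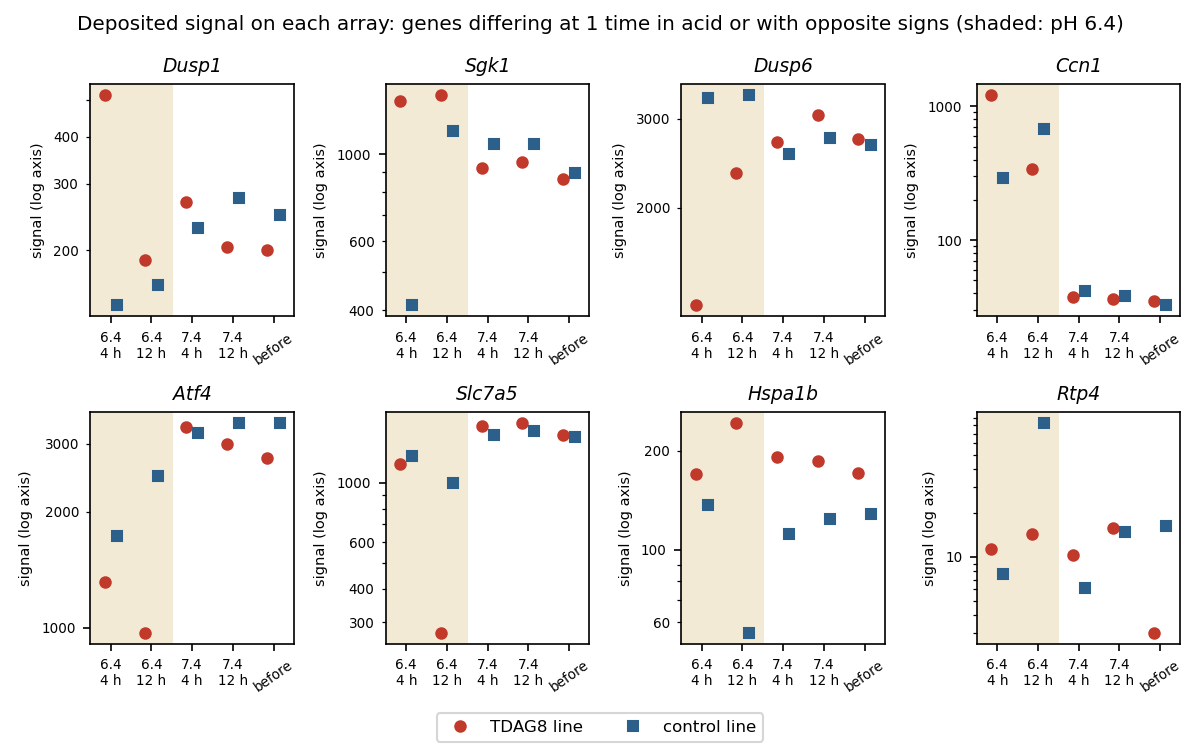
Deposited signal (y axis, log scale) on each of the 10 arrays for 8 genes that differed at 1 time in acid or with opposite signs, with the TDAG8 line as red circles, the control line as blue squares and pH 6.4 shaded. Dusp1 is high on the TDAG8 array at 4 h, Sgk1 is low on the control array at 4 h, and Slc7a5 is low on the TDAG8 array at 12 h.

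At 12 h only, the genes lower in the TDAG8 line included several of amino acid supply. Slc7a5, the large neutral amino acid transporter, had a signal of 1175 at 4 h and 273 at 12 h in TDAG8 cells, against 1266 at 4 h and 997 at 12 h in control cells. Its values without acid were 1519 to 1683 in TDAG8 cells and 1492 to 1567 in control cells, and the TDAG8 array at 12 h was the lowest of the 10. Slc3a2, the heavy chain that pairs with it, read 1979.9 at 4 h and 678 at 12 h in TDAG8 cells, against 1757 at 4 h and 1520.2 at 12 h in control cells. Slc7a1, the cationic amino acid transporter, read 698 at 4 h and 596 at 12 h in TDAG8 cells, against 667 at 4 h and 1259 at 12 h in control cells. Atf4, the factor that drives amino acid response genes, gave 1315 at 4 h and 968 at 12 h in TDAG8 cells, against 1729 at 4 h and 2471 at 12 h in control cells. Without acid it read 2748 to 3321 in TDAG8 cells and 3203 to 3396 in control cells, so both lines were lower in acid at both times. Sesn2, Mthfd2 and Gpt2, a leucine sensor, a mitochondrial folate enzyme and an alanine transaminase, differed by -1.17, -1.11 and -1.08 at 12 h. Adm2, a peptide of the calcitonin family, differed by -1.09 at 12 h.

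The amino acid response list, of ATF4 targets and partners, had 24 genes tested of 25. At 4 h, 1 was higher and 1 lower by at least 1, beside 2.84% and 1.9% of all genes. At 12 h 1 was higher and 9 were lower, beside 3.36% and 2.01%. Its median was -0.109 at 4 h and -0.748 at 12 h, beside -0.005 and 0.006 over all genes. Below 0 at 4 h were 17 of the 24, and 6163 of all 12161 genes. At 12 h 22 of the 24 were below 0, as were 5963 of all 12161 genes. The 2 exceptions were Cebpb and Stc2. Trib3, a pseudokinase, read 105 at 4 h and 62.4 at 12 h in TDAG8 cells, against 188 at 4 h and 299 at 12 h in control cells, and Ddit3, a stress factor also called CHOP, 156 at 4 h and 99 at 12 h in TDAG8 cells, against 314 at 4 h and 363 at 12 h in control cells. Enzymes of serine synthesis and the aminoacyl tRNA synthetases lay between these and 0, with Psat1 at -0.36, Aars at -0.85 and Gars at -0.43 at 12 h. In the 10-array test 1 of the 24 passed, which was Chac1.

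**Figure D5:**
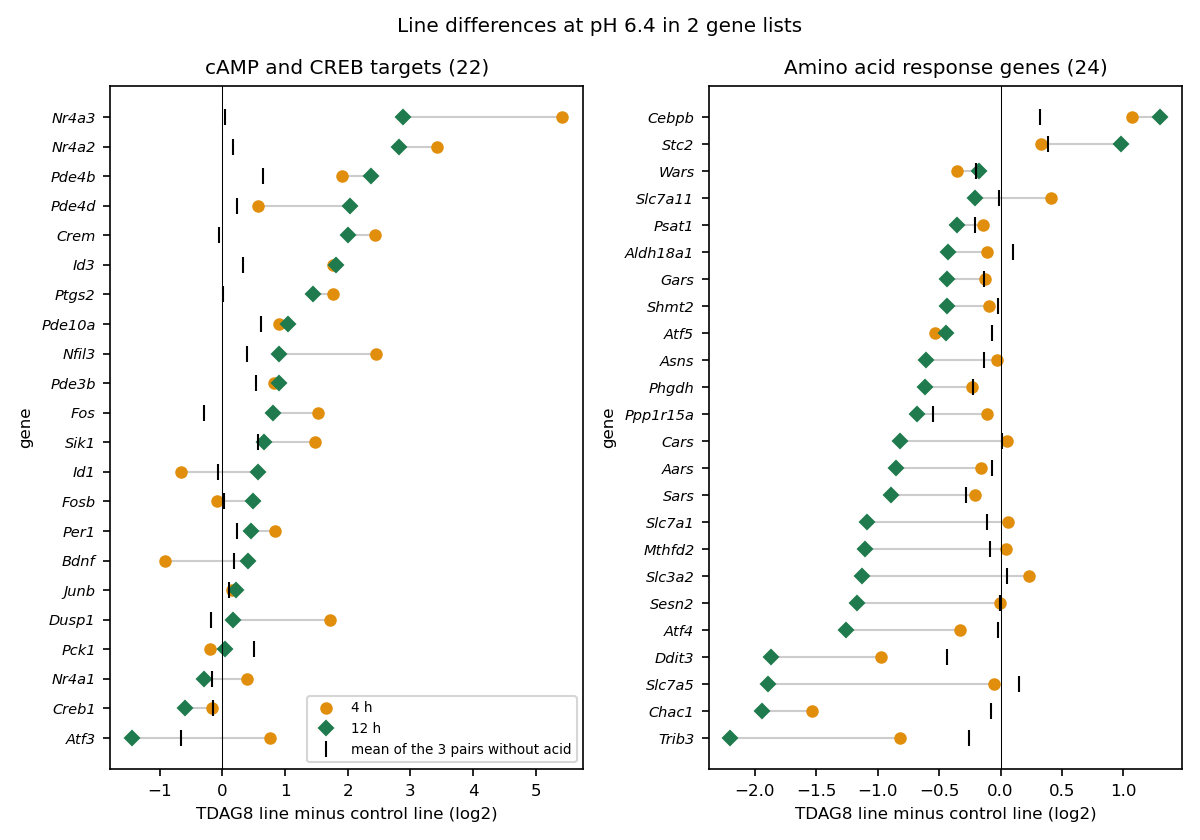
Difference between the TDAG8 line and the control line at pH 6.4 (x axis, log2) for each tested gene of the cAMP and CREB target list (22) and of the amino acid response list (24), at 4 h (orange circles) and 12 h (green diamonds), with the mean of the 3 pairs without acid as a black tick. Most cAMP targets lie right of 0 at both times. Most amino acid genes lie left of 0 at both times, with a median of -0.109 at 4 h and -0.748 at 12 h.

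The ATF4 composite element, TGATGNAA, was searched on both strands in the same promoters. It stood in 5 of 21 promoters of the amino acid list (23.8%) and in 2.35% of all tested genes. That list is of ATF4 targets and partners, which favours the element in advance, so nothing is read from its share. Chac1 and Asns are shown as the gene lower at both times and a textbook target, with the element in capitals (as its reverse complement in Chac1). The windows are chr2:119351019-119351086 on the plus strand and chr6:7693210-7693262 on the minus strand.
Chac1: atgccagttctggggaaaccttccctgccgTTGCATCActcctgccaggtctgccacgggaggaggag
Asns: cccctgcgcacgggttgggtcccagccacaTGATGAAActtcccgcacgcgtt
Asns, asparagine synthetase, differed by -0.031 at 4 h and -0.61 at 12 h. Of the 22 genes lower at 12 h only that had a promoter in the table, 1 (4.55%) held the composite element and 2 (9.09%) a CRE half-site. Over all tested genes the shares were 2.35% and 30.3%.

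Genes outside amino acid supply were also lower at 12 h only. Rtp4, an interferon response gene, read 11.4 at 4 h and 14.4 at 12 h in TDAG8 cells, against 7.6 at 4 h and 83.2 at 12 h in control cells, where the control array at 12 h was the high one. Ifit2 and Gbp2, of the same response but outside the class, differed by -0.66 at 4 h and -1.35 at 12 h and by -1.29 at 4 h and -1.63 at 12 h. Gbp2 was too dim for the classes, so it is not counted among the genes lower alike. The interferon list of 17 had medians of 0.229 and -0.388, with 6 lower by at least 1 at 12 h, beside 2.01% of all genes. With the 60th percentile filter its 12 h median was 0.077, so the direction turned. Ccl5, a chemokine, read 30.8 at 4 h and 55.3 at 12 h in TDAG8 cells, against 31.1 at 4 h and 144 at 12 h in control cells. Etv4, an ETS factor downstream of ERK, read 75.8 at 4 h and 23.8 at 12 h in TDAG8 cells, against 91.5 at 4 h and 127 at 12 h in control cells. Nppb, a natriuretic peptide, read 48.6 at 4 h and 25.3 at 12 h in TDAG8 cells, against 48.1 at 4 h and 81 at 12 h in control cells, and Max, the partner of Myc, 133 at 4 h and 58.3 at 12 h in TDAG8 cells, against 147 at 4 h and 189 at 12 h in control cells. Pdgfrb and Tsc2, a growth factor receptor and a brake on mTOR, differed by -1.27 and -1.17 at 12 h. In the 33 genes the TDAG8 array at 12 h read low in 26 and the control array at 12 h read high in 7. All probe sets agreed in 8 of the 9 genes of this class with several bright ones. The same held for 11 of 14 genes higher alike, 4 of 7 higher at 4 h only, 2 of 4 lower at 4 h only and 9 of 14 higher at 12 h only.

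In most of the 31 genes higher at 12 h only the odd array out was that of the control line. Its array at 12 h read low in 24 of them, and the TDAG8 array at 12 h read high in 7. Cpeb4, a regulator of translation, read 204 at 4 h and 366 at 12 h in TDAG8 cells, against 246 at 4 h and 131 at 12 h in control cells, with 160.4 to 287 in TDAG8 cells and 153 to 266 in control cells without acid. The control array at 12 h was the lowest of the 10 and the TDAG8 array at 12 h the highest. Its difference at 12 h was 1.42, and 0.675 when all its probe sets were averaged. Ddr1, a collagen receptor kinase with 2 of its 3 bright probe sets in agreement, read 599 at 4 h and 529 at 12 h in TDAG8 cells, against 438 at 4 h and 187 at 12 h in control cells, and Prkaa1, a catalytic subunit of AMPK, 53.4 at 4 h and 148 at 12 h in TDAG8 cells, against 43.2 at 4 h and 49.4 at 12 h in control cells. Hspa1b, an inducible heat shock protein, read 169.6 at 4 h and 244 at 12 h in TDAG8 cells, against 137 at 4 h and 55.6 at 12 h in control cells, and its near-identical copy Hspa1a, which was placed in the 4 h class, 165 at 4 h and 80.9 at 12 h in TDAG8 cells, against 62.6 at 4 h and 61.4 at 12 h in control cells. Probes may not separate these copies, so their different classes are uncertain. Lor had the widest gap, with 41.4 at 4 h and 54.8 at 12 h in TDAG8 cells, against 49.7 at 4 h and 6.1 at 12 h in control cells, but it is dim and a single low array made the difference, which was 2.72 and became 0.793 over the mean of all its probe sets.

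Ccn1 and Ankrd1, targets of YAP and SRF, had opposite signs. Ccn1, a matrix protein of cell adhesion, had a signal of 1216 at 4 h and 338 at 12 h in TDAG8 cells, against 290.2 at 4 h and 674 at 12 h in control cells, and 35 to 37.6 in TDAG8 cells and 32.5 to 41.8 in control cells without acid. All 4 acid arrays were thus above the 6 others, with the TDAG8 line higher at 4 h and the control line higher at 12 h. Ankrd1, a nuclear ankyrin protein, gave 59.7 at 4 h and 25.5 at 12 h in TDAG8 cells, against 10 at 4 h and 71.6 at 12 h in control cells. Its values without acid, 5.5 to 13.1 in TDAG8 cells and 2.1 to 10.4 in control cells, were dim. Each time in acid had 1 pair, so the test of 12 h minus 4 h took its spread from the pairs without acid. Its SE therefore does not measure the spread of the acid arrays. Ccn1 gave -2.93 ± 0.2 for 12 h minus 4 h (SE from limma; adjusted p 0.304), and Ankrd1 -3.87 ± 1.13 (adjusted p 0.423). The test of 12 h minus 4 h passed 0 of 12161 genes (0%), with 1230 at an unadjusted p under 0.05. With the 60th percentile filter it passed 1 of 9358 (0.0107%), which was Ccn1, and with trend and robust estimation 39 of 12161 (0.321%). Membership of a time class therefore does not show that the 2 times differ. Of 15 tested SRF and YAP targets, 5 were higher by at least 1 at 4 h, beside 2.84% of all genes. At 12 h 1 was higher and 2 were lower, beside 3.36% and 2.01%, and the medians were 0.343 and 0.027. Lats2, a Hippo kinase on that list, differed by 2.00 at 4 h and 1.02 at 12 h on the probe set used, but only 1 of its 4 bright probe sets, that one, was in agreement.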

How the data were processed

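Gene expression was measured on 10 one-colour Affymetrix mouse arrays, 1 for each line and condition, each from RNA pooled over 4 cultures per the labels. The authors deposited a linear intensity per probe set, scaled so that the 2% trimmed mean is the same on every array; the software is not given in the sources used here. Of 45101 probe sets, 34945 had 1 gene symbol, 932 several and 9160 none. The 10 arrays were quantile normalised, a pseudocount of 2.4 was added and log2 taken. The probe set with the highest mean stood for each gene, and genes under the 40th percentile of the mean were left out, which kept 12161. Differences were tested with limma 3.58.1 in R 4.3.3, with time as a block, and p-values were adjusted over all genes by the Benjamini-Hochberg method at 0.05. They measure only the spread between these arrays, and for 12 h minus 4 h only that of the pairs without acid. Text genes were named by rule, namely the genes with the widest differences of each class and up to 4 of each list, and the others were named after their values were seen. The members, classes and lists were chosen with earlier results of these data known. Alternatives were the normalisation, filter, pseudocount, probe set choice, fold limit, signal limit, variance trend and, over all 10 arrays, leaving out each pair.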

Additional observations from a re-analysis of the deposited data

Results flagged for a closer look

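Ccn1 and Ankrd1 differed between the lines in opposite directions at the 2 times in acid. The difference for Ccn1 was 1.91 at 4 h and -1.02 at 12 h, and for Ankrd1 it was 2.48 at 4 h and -1.39 at 12 h (log2, 1 pair of arrays per time). The test of these times took its spread from the pairs without acid, so it does not measure the spread in acid. In limma's test of 12 h minus 4 h neither passed, with adjusted p of 0.304 for Ccn1 and 0.423 for Ankrd1. Ccn1 passed with the 60th percentile filter, and both passed with a pseudocount of 32.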

How the results depend on the processing

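The count of genes passing limma's test of the line difference in acid was 0, and it was 15 with the 60th percentile filter, 165 with a pseudocount of 32, 240 with trend and robust estimation and 19 over all 10 arrays. For acid minus no acid, against 0, those first 3 settings gave 3, 25 and 27, and for 12 h minus 4 h, against 0, they gave 1, 8 and 39. The 10-array count of 19 became 12 on deposited values, 0 without a filter, 340 with the 60th percentile filter, 7, 75 and 456 with pseudocounts of 0.5, 7.7 and 32, and 640 with trend and robust estimation. Leaving out any 1 of the matched pairs gave 0 to 0. The alternatives to the 10-array count were chosen after seeing the data. With a pseudocount of 32, the classes held 27 alike, 17 at 4 h only and 29 at 12 h only, against 46, 52 and 64. With a fold limit of 0.58 they held 208, 187 and 337, and without the signal limit 100, 269 and 315. That fold limit also gave 1706 genes at 4 h and 1985 at 12 h, against 576 and 653. The causes were not tested. Of 160 values for the named genes alike at both times, 160 kept their sign and 157 were at least 1 in size. For genes at 4 h only 127 of 127 kept it and 107 were at least 1, and for those at 12 h only 126 of 126 kept it and 108 were at least 1. The 160 include values with 1 acid pair left out, which the class rule already holds at 1 or more. Genes filtered out in a setting are not counted, and the named genes were picked for wide differences in the same data. These counts are thus favoured in advance. Among the smallest of all these values were Nxpe3, 0.358 against 1.82, and Nmrk1, 0.157 against 1.64, on the mean of all probe sets. With a pseudocount of 32, dim genes had smaller differences, such as Il6 with 0.956 against 2.53, Crhbp with 1.44 against 3.12, Il11 with 1.73 against 3.17 and Mmp3 with 1.76 against 2.72. Of 48 list medians 47 kept their sign, and the interferon median at 12 h was 0.077 with the 60th percentile filter against -0.388. With 1 array each, dim genes are limited by array noise.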

Other observations

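Further lists are given by their medians. DNA replication and mitosis genes had medians of -0.1 at 4 h and -0.323 at 12 h over 27 genes, 0 of them past 1 in size and 23 below 0 at 12 h, beside 5963 of 12161 genes over all. Their median over the pairs without acid was -0.1. Glycolysis and hypoxia genes had medians of 0.234 and 0.28 over 25 genes, and ER chaperones 0.035 and -0.206 over 18, with Herpud1, of protein quality control, at -0.64 at 4 h and -1.67 at 12 h. Chemokines had medians of 0.388 and 0.746 over 13 genes, with 4 higher and 3 lower by at least 1 at 12 h beside 3.36% and 2.01% of all genes, and matrix proteases 0.359 and 0.237 over 15. Abundant housekeeping genes stayed at -0.025 and 0.009. Of the genes passing limma over 10 arrays, 3 were too dim for the classes. Trp53i11 read 34.9 and 31.6 in TDAG8 cells, against 3.3 and 4.1 in control cells in acid (adjusted p 0.0194), Prxl2a 24.5 and 13.7 in TDAG8 cells, against 0.4 and 0.6 in control cells (0.0464) and Sel1l3 15.1 and 12.7 in TDAG8 cells, against 5.3 and 4.1 in control cells (0.0434). Without acid their mean differences were 0.796, 1.52 and -1.05, so Sel1l3 had the opposite sign there.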
